A study of Mus musculus with 11 samples.

Results

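The H3K4me3 response of mouse ovarian granulosa cells 48 h after equine chorionic gonadotropin (eCG) was measured at gene windows, 1 per Entrez gene ID, in 2 chromatin immunoprecipitation sequencing (ChIP-seq) libraries at 48 h and 2 at 0 h. Windows were kept where the mean over the 4 libraries was 5 CPM or more (CPM being counts relative to the library total, after TMM scaling), which left 14698 of 24541 gene windows, 14679 of them with a gene symbol. Granulosa cells line the ovarian follicle around the oocyte and make oestradiol. The 48 h group was made up of C57BL/6 mice given eCG 48 h before the cells were collected, and the 0 h group of C57BL/6 mice that had not been treated. The labels give no age for these mice, call the treatment FSH although eCG is the hormone in the group names, and list no untreated group at 48 h, so that eCG, elapsed time and collection cannot be told apart. Within a group the libraries are given as biological replicates. The RNA sequencing libraries of the same series (3 at 48 h and 3 at 0 h, labelled postnatal day 21) were used here as a separate readout of the same genes, and the input DNA library was not used.

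H3K4me3, trimethylation of lysine on the tail of histone H3, is placed mainly around transcription start sites by the COMPASS and MLL methyltransferases and is the common mark of active and poised promoters. Promoters rich in CpG dinucleotides are usually marked in most cell types, because proteins with CXXC domains bring these methyltransferases to unmethylated CpG, while CpG-poor promoters are usually marked where the gene is transcribed. In granulosa cells FSH acts through its receptor, cAMP and protein kinase A, and prepares the follicle for luteinizing hormone (LH), for oestradiol and later progesterone synthesis, and for ovulation.

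The sequence next to the transcription start is shown for 6 genes, because CpG content differed between the windows that rose most and those that fell most. They are the 3 largest rises and the 3 largest falls among windows with exactly 1 start in the RefSeq promoter table of GRCm38.p6. Each is the 250 bases before the start, 5′ to 3′ on the strand of the gene, with CpG dinucleotides in capitals. The rises are Lhcgr (chr17:88792015-88792264, minus strand, 12 CpG), Jakmip3 (chr7:138940480-138940729, plus strand, 22 CpG) and Slfn14 (chr11:83286727-83286976, minus strand, 1 CpG). The falls are Agt (chr8:124569707-124569956, minus strand, 0 CpG), Nupr1 (chr7:126625471-126625720, minus strand, 6 CpG) and B3galt2 (chr1:143640447-143640696, plus strand, 4 CpG).
Lhcgr: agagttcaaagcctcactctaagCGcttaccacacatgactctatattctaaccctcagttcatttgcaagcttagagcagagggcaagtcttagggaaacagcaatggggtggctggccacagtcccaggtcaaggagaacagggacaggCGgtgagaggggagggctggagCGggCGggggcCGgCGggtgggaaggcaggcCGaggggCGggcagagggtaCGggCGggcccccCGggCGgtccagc
Jakmip3: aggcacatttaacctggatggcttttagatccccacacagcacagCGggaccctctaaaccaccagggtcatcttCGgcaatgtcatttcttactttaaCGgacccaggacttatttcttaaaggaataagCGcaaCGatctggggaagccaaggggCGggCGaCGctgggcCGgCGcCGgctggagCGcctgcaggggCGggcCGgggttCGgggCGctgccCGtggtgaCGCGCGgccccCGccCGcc
Slfn14: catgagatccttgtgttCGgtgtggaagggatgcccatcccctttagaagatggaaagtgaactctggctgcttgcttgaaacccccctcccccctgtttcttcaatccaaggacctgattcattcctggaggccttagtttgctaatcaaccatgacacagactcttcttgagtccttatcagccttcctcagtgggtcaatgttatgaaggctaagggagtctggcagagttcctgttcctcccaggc
Agt: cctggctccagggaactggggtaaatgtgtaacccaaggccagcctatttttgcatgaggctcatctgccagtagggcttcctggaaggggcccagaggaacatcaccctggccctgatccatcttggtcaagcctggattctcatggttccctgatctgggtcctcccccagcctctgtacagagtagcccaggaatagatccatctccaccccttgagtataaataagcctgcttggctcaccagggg
Nupr1: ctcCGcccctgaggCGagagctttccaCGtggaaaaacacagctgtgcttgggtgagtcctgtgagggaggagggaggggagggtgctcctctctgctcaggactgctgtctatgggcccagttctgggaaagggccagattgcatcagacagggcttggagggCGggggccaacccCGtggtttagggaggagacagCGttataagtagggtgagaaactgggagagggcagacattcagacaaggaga
B3galt2: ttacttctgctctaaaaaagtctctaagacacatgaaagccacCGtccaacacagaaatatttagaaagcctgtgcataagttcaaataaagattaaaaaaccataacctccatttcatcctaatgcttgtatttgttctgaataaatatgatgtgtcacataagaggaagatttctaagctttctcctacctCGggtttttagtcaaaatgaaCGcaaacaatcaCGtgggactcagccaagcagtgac
In the Lhcgr sequence the GC box letters GGGCGG begin 76, 42, 25 and 12 bases before the start, and in the Agt sequence the letters TATAAA begin 30 bases before it. Slfn14 holds the AP1 letters TGANTCA 134 bases before its start.

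Total counts were 17137463 and 17968033 in the 48 h libraries and 15124233 and 11989769 in the 0 h libraries, and 97.9% to 98.3% of them fell in the windows kept. Kept windows had a median of 62.3 CPM, with quartiles of 31.0 and 93.7 CPM. As a measure of background, 4653 windows under 5 CPM whose genes had no RNA count in any library had medians of 1.5 and 1.35 CPM in the 48 h libraries, against 1.79 and 1.5 CPM in the 0 h libraries. The libraries of a group differed by more than counting noise, with a chi-square of 4.0 per degree of freedom between the 48 h libraries and 1.69 between the 0 h libraries. At the edge of the level minimum, Shbg had a mean of 5.01 CPM (3.66 and 3.48 CPM at 48 h, 5.82 and 7.07 CPM at 0 h) and was kept. Dmrta2 had a mean of 4.996 CPM (5.52 and 5.17 CPM at 48 h, 5.31 and 3.99 CPM at 0 h) and was not.

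The mark differed between 48 h and 0 h at 2263 of the 14698 windows (15.4%) by edgeR's quasi-likelihood test at a Benjamini-Hochberg adjusted p under 0.05. It was higher at 48 h in 1748 windows (11.9%), lower in 515 (3.5%), and 12435 windows did not pass. Over all 24476 windows tested, those under the level minimum included, 7.17% were higher and 2.43% lower. Most of these changes were small. A fold change of 1.5 or more was reached by 126 of the windows that rose (0.857% of all) and by 96 of those that fell (0.653%), and a fold change of 2 or more by 18 and 9 windows. The 2 libraries of 48 h lay both above or both below the 2 of 0 h in 8478 windows (57.7%), in every window past 1.5-fold, and in all but 8 of the windows that rose and 3 of those that fell.

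**Figure D1:**
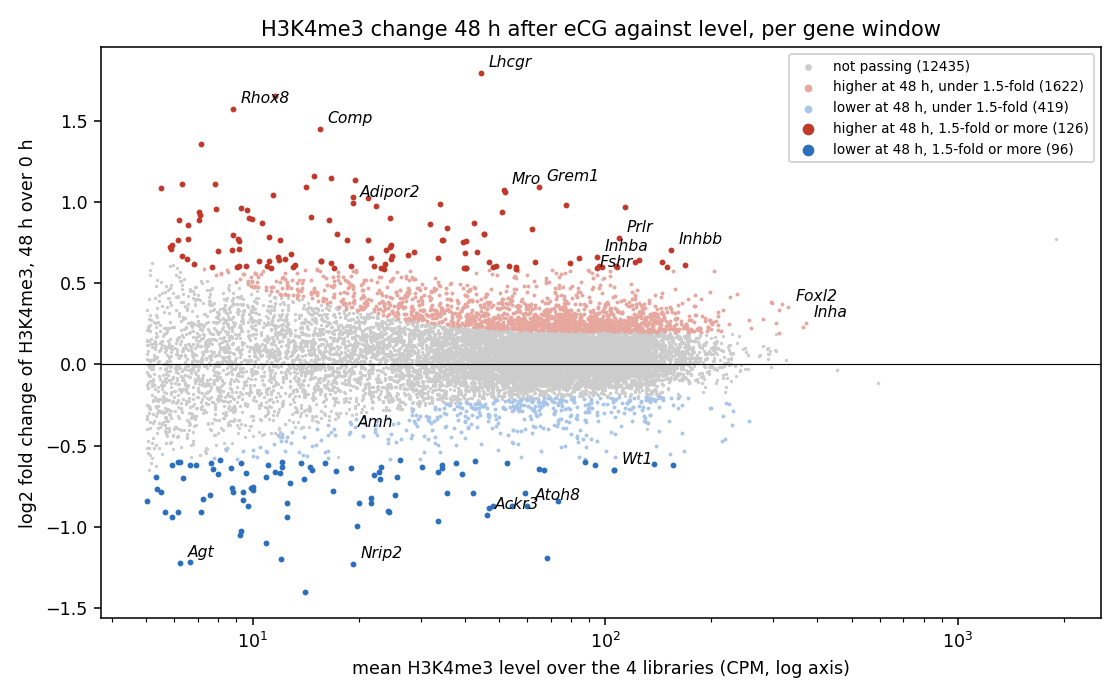
H3K4me3 of each of 14698 gene windows: the horizontal axis is the mean level over the 4 libraries (CPM, log axis) and the vertical axis the log2 fold change, 48 h over 0 h; colours mark the windows called at an adjusted p under 0.05. The widest changes, from Lhcgr at 1.79 to Mir7059 at -1.40, sit at windows under 100 CPM, and the calls above 200 CPM are small.

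Most windows past 1.5-fold kept their call under the 3 other scalings given next, as did most falls and a smaller share of the rises. The share of calls that were higher, 77.2%, depended on the scaling of the libraries, since it was 53.7% higher with library sizes alone (978 higher, 843 lower), 55.3% with TMM factors from windows of 50 CPM or more (1016 and 820) and 53.9% with a loess offset on level (1205 and 1031). The median log2 fold change over all kept windows was 0.05 with TMM and -0.0013, 0.0011 and 0.0015 under these 3 scalings. Calls that passed in the same direction under all 4 scalings numbered 949 higher and 487 lower, and included 114 of the 126 windows up by 1.5-fold and 90 of the 96 down by 1.5-fold. Only the call had to hold there, not the 1.5-fold size, and the number of windows past 1.5-fold also changed with the scaling. A large fold outlasts a small shift in scaling more easily, so these counts do not rank large and small changes by steadiness. None of the 2263 called windows was called in the opposite direction under any of the 17 settings tried. With TMM factors from background windows, a scaling chosen after seeing the data, the median was 0.26, 331 windows were higher, and the 16 that were lower were all among the 20 largest falls. All of these 331 and 16 windows were past 1.5-fold. The number of calls also depended on single libraries: it fell to 296 higher and 216 lower without 0 h replicate 1, to 902 and 248 without 0 h replicate 2, and to 772 and 317 without 48 h replicate 1. The 1.5-fold sets held 109 to 156 windows higher and 64 to 127 lower with any 1 of the 4 libraries left out.

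The largest rise in the mark was at Lhcgr, the receptor for LH (gene ID 16867, chromosome 17, 88716384 to 88792059). Its window had 61.7 and 76.4 CPM in the 48 h libraries, against 23.9 and 15.2 CPM in the 0 h libraries. Both 48 h libraries lay well above both 0 h libraries. The log2 fold change was 1.79 ± 0.25 (SE) with an adjusted p of 0.0414, and over the 17 settings it was 1.53 to 2.16 and was called in each. RNA of Lhcgr, from 723 to 1165 CPM in the 3 libraries of 48 h and from 42.3 to 88.5 CPM in the 3 of 0 h, rose by a log2 fold of 3.73.

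Other large rises were at windows of varied genes. Grem1, a secreted antagonist of bone morphogenetic proteins (BMPs), had 84.1 and 92.5 CPM at 48 h, against 43.3 and 39.3 CPM at 0 h (log2 1.09 ± 0.08, adjusted p = 1.09e-27). Comp, cartilage oligomeric matrix protein, had 22.0 and 23.7 CPM at 48 h, against 10.04 and 6.32 CPM at 0 h (log2 1.45 ± 0.14). For both the libraries of a group lay close together and the groups far apart. Tle2, a Groucho-type corepressor, had 47.5 and 43.1 CPM at 48 h, against 23.1 and 22.4 CPM at 0 h, a log2 fold of 0.99. Adipor2, an adiponectin receptor, had 24.8 and 26.4 CPM at 48 h, against 13.3 and 12.3 CPM at 0 h, a log2 fold of 0.996. Mrap, an accessory protein of melanocortin receptors, had 29.5 and 30.2 CPM at 48 h, against 16.7 and 13.3 CPM at 0 h, a log2 fold of 0.98. None of these windows had a library of one group inside the range of the other. That was a condition for the largest rises and falls named here.

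Several of the largest folds were at windows of low level. Insyn2b, whose product belongs to a family of inhibitory synapse proteins, had 16.4 and 19 CPM at 48 h, against 6.72 and 4.32 CPM at 0 h (log2 1.65 ± 0.16). Rhox8, a reproductive homeobox gene of the X chromosome, had 11.3 and 15.2 CPM at 48 h, against 5.76 and 2.91 CPM at 0 h (log2 1.57 ± 0.19). At 0 h both genes had windows close to the level minimum. Further windows among the 20 largest rises ranged from 1.02 (Pdlim2, a PDZ and LIM domain protein) to 1.16 (Jakmip3) on the log2 scale, apart from Erdr1 at 0.98. They included Slfn14, Cyp4f15, a cytochrome P450 of fatty acid hydroxylation, Astn1, an adhesion protein of migrating neurons, Aldh3b1, an aldehyde dehydrogenase, Rnf220, a ubiquitin ligase, Mro and Hoxd11. Hoxd10, next to Hoxd11, did not pass, with 12.1 and 13.1 CPM at 48 h and 13.9 and 14.3 CPM at 0 h, and Dock2, which overlaps Insyn2b, stayed at 2.25 to 2.7 CPM in all 4 libraries. All 20 rises were called under each of the 17 settings.

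The largest falls were at windows of varied genes. Ackr3, a scavenging chemokine receptor, had 30.8 and 32.8 CPM at 48 h, against 58.4 and 63.0 CPM at 0 h (log2 -0.93 ± 0.08, adjusted p = 1.41e-20). Slc18a2, the vesicular monoamine transporter, had 34.0 and 31.9 CPM at 48 h, against 58.8 and 62.9 CPM at 0 h (log2 -0.88). Itih5, a heavy chain of the inter-alpha-trypsin inhibitors that bind hyaluronan, had 33.7 and 34.4 CPM at 48 h, against 62.3 and 62.5 CPM at 0 h (log2 -0.87). In each of these 3 windows the 2 libraries of 48 h lay close together, as did the 2 of 0 h. That the groups did not overlap was a condition for naming them.

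Falls of similar or greater fold occurred at low levels. Agt, angiotensinogen, had 3.84 and 3.65 CPM at 48 h, against 8.95 and 8.48 CPM at 0 h (log2 -1.22). Nupr1, a stress-induced chromatin protein, had 12.2 and 14.3 CPM at 48 h, against 27.4 and 25.4 CPM at 0 h (log2 -0.997). Gulo, gulonolactone oxidase of vitamin C synthesis, had 7.38 and 6.57 CPM at 48 h, against 16 and 13.7 CPM at 0 h (log2 -1.10). In Agt the 48 h values came down towards the background windows. Mug2 and Mug-ps1, of the murinoglobulin family of protease inhibitors, fell by 0.91 and 1.22 on the log2 scale, and reads of these near copies may not be told apart. Further falls were those of Nrip2, which interacts with nuclear receptors, Tmem184a, Efcab1, Nlrp10, B3galt2, a galactosyltransferase, R3hdm2, Gjc3, a connexin, Fam180a, Mir7059, and Wfdc10 with Wfdc9, which overlap and have nearly equal counts. Mir7059 lies inside Cln3 and had the largest fall (log2 -1.40), with 7.62 and 7.80 CPM at 48 h, against 20.4 and 20.4 CPM at 0 h. Cln3 itself did not pass (log2 -0.13), nor did Itfg2, which overlaps Nrip2, or Cdc73, which overlaps B3galt2. Without 0 h replicate 1, Nlrp10 (adjusted p = 0.0705), Gjc3 (0.239) and Mug2 (0.191) were not called, while the other 17 falls were called with any 1 library left out. Gjc3, Mug2, Fam180a and Itih5 (adjusted p = 0.0512) were not called with TMM factors from background windows.

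**Figure D2:**
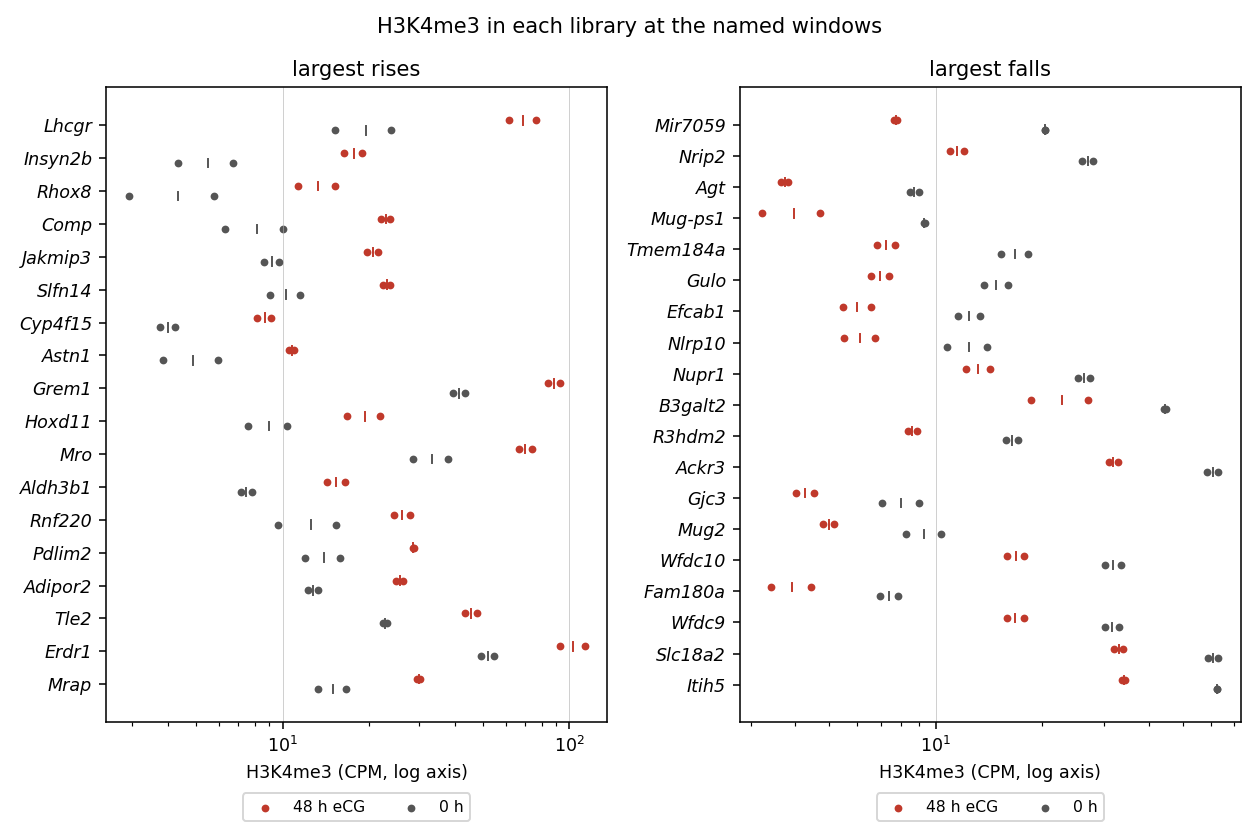
H3K4me3 in each library at 18 of the 20 largest rises (left panel) and 19 of the 20 largest falls (right panel): points are the 2 libraries of 48 h (red) and the 2 of 0 h (grey), short bars are the group means, and the horizontal axis is CPM on a log scale. Lhcgr stands at 61.7 and 76.4 CPM at 48 h and 23.9 and 15.2 CPM at 0 h, and Ackr3 at 30.8 and 32.8 CPM at 48 h and 58.4 and 63.0 CPM at 0 h.

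Among 21 windows of gonadotropin and cAMP signalling, 8 rose, 2 fell and 11 did not pass, against 11.9% of all windows that rose and 3.5% that fell. Their median log2 fold was 0.13, against 0.05 over all windows. Fshr, the FSH receptor, had 107 and 113 CPM at 48 h, against 76.3 and 71.7 CPM at 0 h (log2 0.56 ± 0.07, adjusted p = 1.19e-10), and was called under each setting. The mark fell at Pde7b, a cAMP phosphodiesterase, with 68.9 and 78.5 CPM at 48 h, against 113 and 113 CPM at 0 h. It also fell at Rgs2, a brake on G protein signalling, with 177 and 192 CPM at 48 h, against 252 and 255 CPM at 0 h. For these 3 genes the groups lay clearly apart and RNA changed in the direction of the mark. The kinase subunit Prkar2b (215 and 212 CPM at 48 h, 198 and 191 CPM at 0 h) and the transcription factor Creb1 did not pass. With 0 h replicate 1 left out 2 of these windows rose, and with 48 h replicate 1 left out 3 did, beside 2 falls each time.

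Windows of inhibin, activin and BMP genes were mixed, beside 11.9% of all windows that rose and 3.5% that fell. Of 24, 9 rose, 3 fell and 12 did not pass (median log2 fold 0.07). Inhbb, a subunit of activin and inhibin, had 204 and 177 CPM at 48 h, against 116 and 118 CPM at 0 h (log2 0.71). Inhba, the other such subunit, had 110 and 123 CPM at 48 h, against 75 and 72.1 CPM at 0 h (log2 0.66). Both subunits, like Grem1, were called under each setting with no overlap between groups. Bmp2 had 84.5 and 73.9 CPM at 48 h, against 107 and 113 CPM at 0 h (log2 -0.47). Amh, anti-Müllerian hormone of small growing follicles, had 16.1 and 16.3 CPM at 48 h, against 20.8 and 22.6 CPM at 0 h (log2 -0.42, adjusted p = 0.0093). The Amh call was lost without 0 h replicate 1 (0.140) or 2 (0.164), and over all settings its adjusted p was 6.77e-04 to 0.581. The list held 4, 5, 6 and 7 rises without 0 h replicate 1, 0 h replicate 2, 48 h replicate 1 and 48 h replicate 2, and 1 fall without either 0 h library. Among 23 receptors and SMAD genes of this family, 4 rose and 1 fell, led by Id1, a BMP target (log2 0.61), and Smad6, an inhibitory SMAD (log2 -0.38), while the receptor Bmpr2 stood at 329 and 330 CPM at 48 h and 326 and 321 CPM at 0 h and did not pass. Without 0 h replicate 1, 1 of these 23 rose and 1 fell, and without 48 h replicate 1, 2 rose and 2 fell.

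Receptors for other hormones gave some of the larger folds. Over all windows 11.9% rose and 3.5% fell. Of 32 receptors for peptides, growth factors and prostaglandins, 9 rose, 3 fell and 20 did not pass (median 0.07). Prlr, the prolactin receptor, had 134 and 143 CPM at 48 h, against 85.6 and 75.6 CPM at 0 h (log2 0.78 ± 0.07). Ptgfr, the receptor for prostaglandin F, had 29.3 and 34.7 CPM at 48 h, against 19.3 and 14.6 CPM at 0 h (log2 0.90). Adra1d, an alpha-adrenergic receptor, had 20.6 and 22.3 CPM at 48 h, against 12.3 and 10.8 CPM at 0 h (log2 0.89). Each of these was called under every setting, and without 0 h replicate 1 the list still held 6 rises and 3 falls. Igf1r and Insr, the receptors of insulin-like growth factor and insulin, did not pass, with log2 folds of 0.08 and -0.08. Of 33 nuclear hormone receptors, 9 rose and 5 fell (median 0.11), and leaving out 0 h replicate 1, 0 h replicate 2 or 48 h replicate 1 gave 3, 5 and 4 rises with 3, 3 and 2 falls. The related receptors Nr0b2 and Nr0b1, which both act as repressors, moved apart. Nr0b2 had 18.4 and 19.8 CPM at 48 h, against 10.6 and 9.64 CPM at 0 h (log2 0.91), and Nr0b1 had 15.4 and 16.1 CPM at 48 h, against 28.3 and 27.2 CPM at 0 h (log2 -0.82). Nr5a1, the steroidogenic factor, rose (184 and 177 CPM at 48 h, 118 and 120 CPM at 0 h, log2 0.60), and Nr4a1, an immediate early receptor, fell (53.8 and 50.6 CPM at 48 h, 78.3 and 85.8 CPM at 0 h, log2 -0.65).

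Windows of granulosa identity transcription factors moved in both directions. Of 29 such windows, 10 rose, 3 fell and 16 did not pass (median 0.16, against 0.05 over all windows), beside 11.9% of all windows that rose and 3.5% that fell, with 2 rises and 3 falls left without 0 h replicate 1 and 6 rises without 0 h replicate 2 or without 48 h replicate 1. Foxl2, which maintains ovarian identity, was among the highest windows of all, with 372 and 368 CPM at 48 h, against 274 and 304 CPM at 0 h (log2 0.36). The antisense gene Foxl2os starts close by and has nearly the same counts, and the call of Foxl2 was lost without 0 h replicate 1 (adjusted p = 0.120). Gata6 had 339 and 331 CPM at 48 h, against 252 and 262 CPM at 0 h (log2 0.38), and Cebpa had 162 and 150 CPM at 48 h, against 120 and 124 CPM at 0 h (log2 0.36). Against these rises, Wt1, a factor of immature granulosa cells, had 84.2 and 80.6 CPM at 48 h, against 122 and 137 CPM at 0 h (log2 -0.65). Atoh8, a basic helix-loop-helix factor, had 44.7 and 39.9 CPM at 48 h, against 72.8 and 82.4 CPM at 0 h (log2 -0.87). These 2 windows did not overlap between groups and were called with any 1 library left out.

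In steroid synthesis the mark and the transcript differed for some of the best-known genes. The shares over all windows were 11.9% that rose and 3.5% that fell. Of 19 windows, 5 rose, 1 fell and 13 did not pass (median 0.06), and 3 rose without either 0 h library or without 48 h replicate 2. Hsd3b1, which makes progesterone from pregnenolone, had 92.3 and 101 CPM at 48 h, against 64.9 and 60.1 CPM at 0 h (log2 0.63), and Hsd17b1, which makes oestradiol from oestrone, had 185 and 206 CPM at 48 h, against 151 and 145 CPM at 0 h (log2 0.40). Cyp19a1, the aromatase, was under the level minimum with 1.02 and 1.01 CPM at 48 h and 1.47 and 1.41 CPM at 0 h, near the background windows, while its RNA averaged 826 CPM at 48 h and 210 CPM at 0 h (log2 1.98). The window counted for Cyp19a1 is not given in the sources used here, so a value near background says nothing of other promoters of the gene. Star, which carries cholesterol into mitochondria, had 7.86 and 7.86 CPM at 48 h, against 7.36 and 8.39 CPM at 0 h (log2 0.00), while its RNA rose by a log2 fold of 2.66. The Star window was close to the level minimum, and what was counted for it is not given either. Cyp11a1, the side-chain cleavage enzyme, had 6.48 and 7.64 CPM at 48 h, against 5.12 and 4.07 CPM at 0 h (log2 0.61 ± 0.22, adjusted p = 0.0547), and passed with the loess offset, in the crossed replicate block and with TMM from background windows. Cyp17a1, the androgen-making enzyme of theca cells, had 5.58 and 7.30 CPM at 48 h, against 11.1 and 11.1 CPM at 0 h (log2 -0.79), and was not called without 0 h replicate 1 (adjusted p = 0.0859).

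Among the pathway lists, cholesterol synthesis and uptake had the largest share of members that rose. Across all windows 11.9% rose and 3.5% fell. Of its 31 windows, 16 rose, 1 fell and 14 did not pass, with a median log2 fold of 0.22, and 11 to 15 rose with any 1 library left out. Of the 16 rises, 15 passed under all 4 scalings. Tm7sf2, a sterol reductase, had 24.9 and 29.2 CPM at 48 h, against 20.2 and 16.9 CPM at 0 h (log2 0.54). Fdps, which makes farnesyl diphosphate, had 84.8 and 88.3 CPM at 48 h, against 63.6 and 59.8 CPM at 0 h (log2 0.49). Scap, the sterol sensor that escorts SREBP, had 111 and 112 CPM at 48 h, against 81.1 and 80.1 CPM at 0 h (log2 0.47), and Msmo1, a sterol oxidase, rose by the same fold. All rises in this list were under 1.5-fold, whereas 28 of its 31 genes rose in RNA with a median log2 fold of 1.28. Among all genes with kept windows tested in RNA, 16.4% rose. The fall was that of Plin2, a lipid droplet coat protein (log2 -0.34). Npc2, which exports cholesterol from lysosomes, and Cyp51, a sterol demethylase, did not pass in the mark (log2 0.03 and 0.20), although RNA of both rose. Isca2 starts close to Npc2 and has a like level, so the mark there cannot be assigned to Npc2 alone. In glycolysis and lactate transport, 9 of 24 windows rose and 1 fell (median 0.19), led by the lactate exporter Slc16a3 with 52.4 and 57.7 CPM at 48 h, against 33.3 and 26.5 CPM at 0 h (log2 0.87), and with Ldhb, a lactate dehydrogenase subunit, as the fall (log2 -0.34). Without 0 h replicate 1, 2 of these 24 windows rose, and without 0 h replicate 2, 6 did.

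The Wnt, Notch and IGF lists are set beside the shares over all windows, 11.9% higher and 3.5% lower. Of 49 Wnt windows, 8 rose, 2 fell and 39 did not pass (median 0.11), with 3 and 5 rises without 0 h replicate 1 and 2. Sfrp4, a secreted Wnt antagonist, had 29.0 and 32.2 CPM at 48 h, against 20.1 and 16.6 CPM at 0 h (log2 0.72), and its RNA rose by a log2 fold of 6.68. Wnt10b, a Wnt ligand, had 7.62 and 8.42 CPM at 48 h, against 3.77 and 4.99 CPM at 0 h (log2 0.89), a call lost without 0 h replicate 1 (adjusted p = 0.310). Gsk3b, the kinase that marks beta-catenin for destruction, did not pass at 221 and 227 CPM at 48 h and 215 and 228 CPM at 0 h. Of 15 Notch windows 4 rose and 11 did not pass, and 1, 2 and 3 rose without 0 h replicate 1, 0 h replicate 2 and 48 h replicate 1. Notch1 itself had 46.4 and 50.8 CPM at 48 h, against 36.1 and 27.8 CPM at 0 h (log2 0.59). Of 16 windows of the IGF axis 2 rose and 1 fell, with 1 and 0 left without 0 h replicate 1, 1 and 1 without 0 h replicate 2 or 48 h replicate 1, and 2 and 2 without 48 h replicate 2. Pappa, a protease that frees insulin-like growth factors, had 109 and 117 CPM at 48 h, against 85.6 and 81 CPM at 0 h (log2 0.44), beside an RNA log2 fold of 4.14.

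Matrix, angiogenic and Hippo windows included both rises and falls, beside 11.9% of all windows that rose and 3.5% that fell. Of 30 matrix windows 4 rose and 6 fell, with Mmp11, a stromelysin, at 41.3 and 42.2 CPM at 48 h, against 62.4 and 65.1 CPM at 0 h (log2 -0.61). Thbs1, a matrix and vessel-restraining glycoprotein, had 121 and 126 CPM at 48 h, against 178 and 184 CPM at 0 h (log2 -0.55). With 0 h replicate 1 left out the matrix list held 2 rises and 4 falls, with 0 h replicate 2 left out 2 and 3, and with 48 h replicate 1 left out 6 and 3, so that the order of rises and falls turned. Of 21 angiogenic windows 4 rose and 4 fell: Vegfa, the main vascular growth factor, rose (166 and 151 CPM at 48 h, 113 and 123 CPM at 0 h, log2 0.42) while Edn1, endothelin, fell (32.4 and 35.4 CPM at 48 h, 46.6 and 46.3 CPM at 0 h, log2 -0.45). Without 0 h replicate 1, 1 of the 21 rose and 2 fell, and 2 and 1 rose without 0 h replicate 2 and 48 h replicate 1. Of 21 Hippo windows 1 rose and 4 fell, among them the YAP targets Ccn1 (log2 -0.36) and Amotl2 (log2 -0.26), and none fell without 0 h replicate 2 (Ccn1 then had an adjusted p of 0.0663 and Amotl2 of 0.149). Without 48 h replicate 2, Amotl2 (0.0986) was not called and 3 windows of this list rose and 2 fell.

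Lists of cell growth and chromatin rested on small changes, beside 11.9% of all windows that rose and 3.5% that fell. Of 36 cell cycle windows 9 rose and 27 did not pass, with folds no larger than that of E2f8 (log2 0.38), and none rose without 0 h replicate 1, 5 without 0 h replicate 2 and 4 without 48 h replicate 1. Ccnd2, the cyclin that FSH induces in granulosa cells, had 193 and 192 CPM at 48 h, against 166 and 183 CPM at 0 h (log2 0.14, adjusted p = 0.210). Of 19 windows of PI3K, AKT and FOXO signalling 6 rose and 13 did not pass, and of 28 windows of H3K4 and H3K27 methylation genes 7 rose and 21 did not pass. With either 0 h replicate 1 or 48 h replicate 1 left out, no window of these last 2 lists rose, and without 0 h replicate 2 none and 2 did. Kdm5b, an H3K4 demethylase, had 156 and 127 CPM at 48 h, against 109 and 118 CPM at 0 h (log2 0.32). In RNA 13 of these 28 genes fell, against 16.1% of all genes with kept windows tested in RNA. Of 28 immediate early windows 7 rose and 2 fell, with Myc at 180 and 180 CPM at 48 h, against 241 and 258 CPM at 0 h (log2 -0.47), and 4 rose without either 0 h library. Apoptosis windows mostly did not pass, with Bcl2l1, a survival factor, higher (log2 0.42), Casp6, a caspase, lower (log2 -0.39) and 24 of 26 in neither group.

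The ovulatory, oocyte dialogue, clock, Hedgehog and Hox lists are read beside the 11.9% of all windows that rose and the 3.5% that fell. Of 22 ovulatory windows 6 rose and 3 fell, 1 rose and 1 fell with either 0 h library left out, and 4 rose and 1 fell without 48 h replicate 1. Ereg, an EGF-like factor of the ovulatory cascade, had 18.3 and 19.4 CPM at 48 h, against 13.8 and 11.9 CPM at 0 h (log2 0.54), and was not called without 0 h replicate 1 (adjusted p = 0.067) or 2 (0.0853). Of 16 windows for dialogue with the oocyte 4 rose and 2 fell. Nppc, the C-type natriuretic peptide that holds the oocyte in meiotic arrest, had 118 and 126 CPM at 48 h, against 83.8 and 83.5 CPM at 0 h (log2 0.55), and its receptor Npr2 had 89.0 and 85.7 CPM at 48 h, against 58.8 and 61.6 CPM at 0 h (log2 0.54). Ligand and receptor thus rose by like folds with no overlap between groups. Slc38a3, an amino acid transporter, had 26.0 and 26.0 CPM at 48 h, against 42.4 and 48.0 CPM at 0 h (log2 -0.79). Of 19 clock windows 6 rose and 2 fell, with 1 rise that passed under all 4 scalings, and 1, 2 and 2 rises without 0 h replicate 1, 0 h replicate 2 and 48 h replicate 1, and 0, 1 and 2 falls. Of 13 Hedgehog windows the ligands Ihh (log2 0.40) and Dhh (log2 0.29) rose, and neither was called without 0 h replicate 1 (adjusted p = 0.0641 and 0.363). Of 25 Hox windows 2 rose and 1 fell, with either 0 h library left out 1 rose and 0 fell, and without 48 h replicate 1 and 2 there were 0 and 2 falls. The scaling mattered for several lists: 5 of 9 rises in nuclear receptors passed under all 4 scalings, as did 2 of 6 in the PI3K list, 2 of 4 in matrix, 2 of 4 in angiogenic, 2 of 4 in Notch, 4 of 9 in cell cycle and 3 of 7 in methylation genes.

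**Figure D3:**
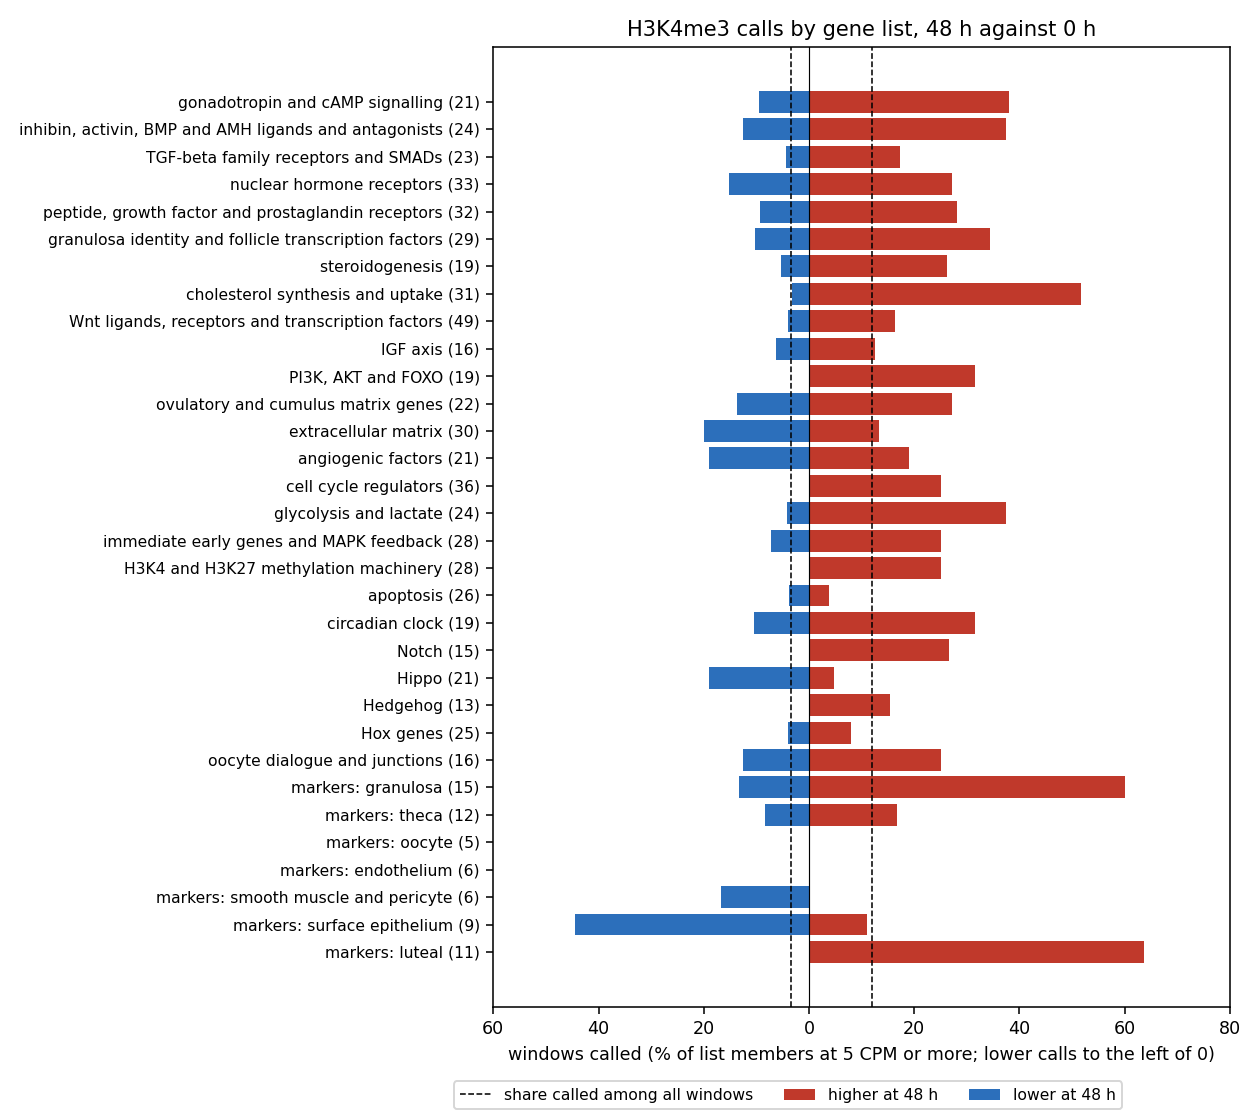
Share of the kept windows of each gene list that rose (red bars, to the right of 0) or fell (blue bars, to the left) at 48 h, in percent of the list members given in brackets; dashed lines mark the shares over all 14698 windows, 11.9% and 3.5%. Cholesterol synthesis and uptake (16 of 31), granulosa markers (9 of 15) and luteal markers (7 of 11) have the longest red bars, and surface epithelium (4 of 9) the longest blue one.

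Markers of cell types were read in the same way, beside 11.9% of all windows that rose and 3.5% that fell. Granulosa markers carried the mark at 15 of 16 windows, of which 9 rose, 2 fell and 4 did not pass. Their summed level was 2788 and 2797 CPM at 48 h, against 2319 and 2362 CPM at 0 h. Luteal markers rose at 7 of 11 windows, the other 4 not passing (median log2 fold 0.61), with summed levels of 779 and 806 CPM at 48 h, against 596 and 560 CPM at 0 h, and 6 or 7 rose with any 1 library left out. Lhcgr, also in the gonadotropin and theca lists, is among these luteal windows. It gave 61.7 and 76.4 CPM of the luteal sums at 48 h, against 23.9 and 15.2 CPM at 0 h. Surface epithelium markers fell at 4 of 9 windows and rose at 1 (median -0.35), and summed to 186 and 203 CPM at 48 h, against 218 and 201 CPM at 0 h, so that their sums overlap. The falls were Upk1b (4.80 and 4.88 CPM at 48 h, 8.31 and 7.40 CPM at 0 h), Upk3b, Krt19 and Krt8 (35.5 and 35.0 CPM at 48 h, 47.0 and 42.4 CPM at 0 h). None of the 4 was called without 0 h replicate 1 (adjusted p = 0.344, 0.575, 0.354 and 0.278), and without 48 h replicate 1 Upk1b (0.0817) and Upk3b (0.138) were not. RNA of Upk1b, Upk3b and Krt19 did not pass.

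Windows of other cell types held few calls, beside 11.9% of all windows that rose and 3.5% that fell. Of 12 theca windows 2 rose and 1 fell (Lhcgr, Aldh1a1 and Cyp17a1), and the list summed to 321 and 364 CPM at 48 h, against 296 and 271 CPM at 0 h. Lhcgr alone gave 61.7 and 76.4 CPM of these sums at 48 h, against 23.9 and 15.2 CPM at 0 h. Without Lhcgr the sums of the groups overlap. Aldh1a1 was not called without 0 h replicate 1 (adjusted p = 0.0549), 0 h replicate 2 (0.246) or 48 h replicate 2 (0.210), nor under any of the other 3 scalings. All 6 endothelial windows did not pass, with sums of 125 and 130 CPM at 48 h and 131 and 122 CPM at 0 h. In RNA 4 of these 6 genes rose, against 16.4% of all genes with kept windows tested in RNA. All 5 oocyte windows of 18 and both red cell windows of 9 did not pass either. Of 6 smooth muscle windows Acta2 alone fell (9.12 and 8.76 CPM at 48 h, 13.4 and 12.4 CPM at 0 h), a call lost without 0 h replicate 1 (adjusted p = 0.382) or 2 (0.0510). None of 16 immune windows reached 5 CPM, and they summed to 42.8 and 41.9 CPM at 48 h, against 45.4 and 37.3 CPM at 0 h. The part of other cell types in the changes was not tested, and fewer cells that carry a mark cannot be told apart here from less of the mark per cell.

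RNA of the same genes was compared with the mark next. Of the 14698 windows 12689 belonged to genes tested in RNA, of which 2084 rose (16.4%) and 2039 fell (16.1%). Genes whose window rose by 1.5-fold or more were mostly higher in RNA: of 102 tested, 79 rose (77.5%), 2 fell and 21 did not pass, with a median RNA log2 fold of 1.251. Genes whose window fell by 1.5-fold or more were mostly lower: of 88 tested, 52 fell (59.1%), 3 rose and 33 did not pass, with a median of -0.87. Over all windows that rose, 550 of 1556 rose in RNA (35.3%) and 136 fell, and over all that fell, 237 of 463 fell in RNA (51.2%) and 11 rose. Where the window did not pass, 14.3% rose and 15.6% fell in RNA. Both shares were larger than those among windows that did not pass. With DESeq2 in the H3K4me3 fit the genes higher in both numbered 288 and those lower in both 147, and with 0 h replicate 1 of the H3K4me3 libraries left out 177 and 139.

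The size of the RNA change went with the size of the change in the mark. The median H3K4me3 log2 fold was -0.16 for 21 genes that were down by more than a log2 fold of 2 in RNA, -0.08 for 376 genes between -2 and -1, and 0.05 for the 9535 genes between -0.5 and 0.5. It was 0.25 for 387 genes between 1 and 2, 0.38 for 62 between 2 and 3, and 0.40 for 32 above 3. Across these groups the RNA fold spanned several log2 units and the fold of the mark less than 1. Of the 32 genes with the largest RNA rises, 16 rose in the mark and the others did not pass. Across 12689 genes Spearman's rho between both folds was 0.26 and Pearson's r 0.36, and over the 2019 genes called in the mark rho was 0.54. That set was chosen on the mark itself, which leaves out most folds near 0, so its rho is not comparable with that of all genes. Genes share libraries and are not independent, and level differed between the groups of genes: windows up by 1.5-fold had medians of 26.3 CPM at 48 h and 13.8 CPM at 0 h.

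**Figure D4:**
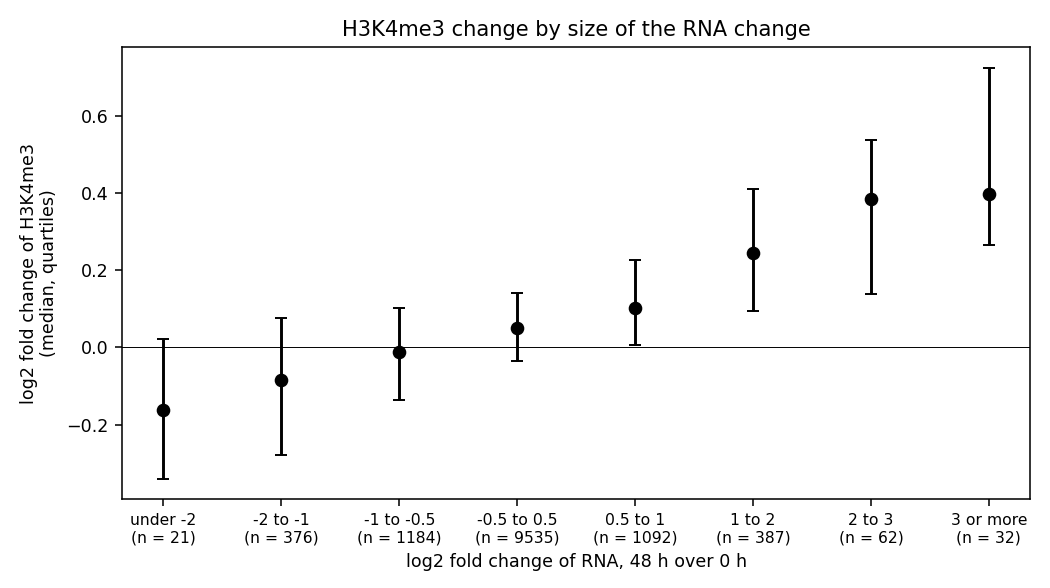
Median log2 fold change of H3K4me3 (points, with quartiles as bars) for genes grouped by their RNA log2 fold change, both 48 h over 0 h, with the number of genes under each group. The medians climb from -0.16 in the lowest group to 0.40 in the highest, while the horizontal axis spans several log2 units.

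**Figure D5:**
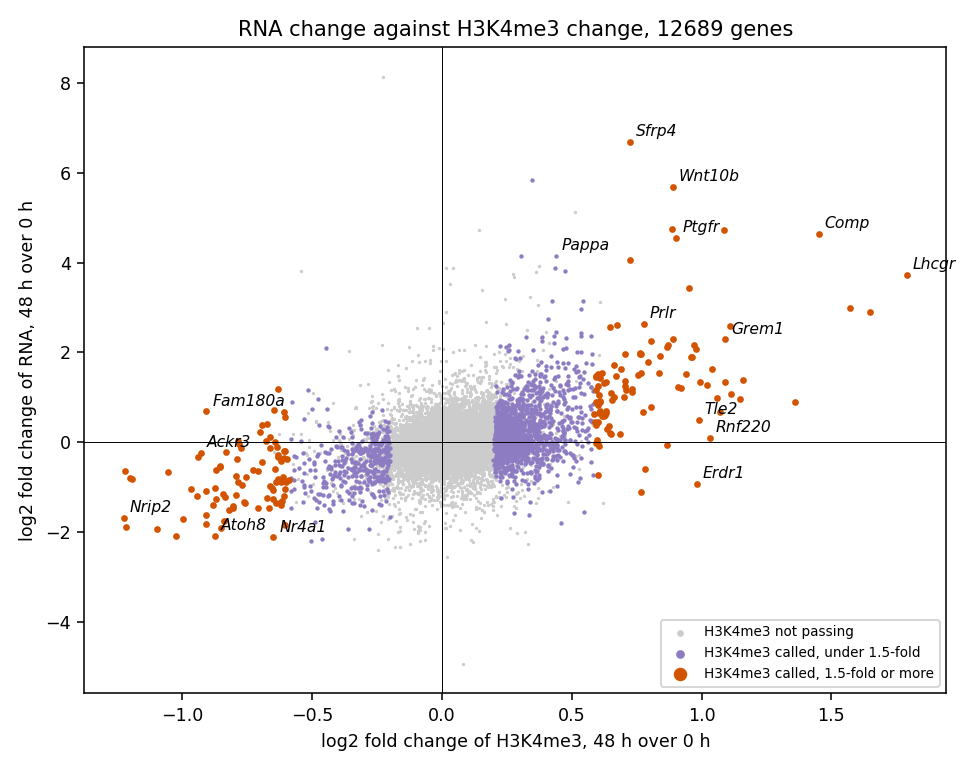
RNA log2 fold change (vertical axis) against H3K4me3 log2 fold change (horizontal axis), 48 h over 0 h, for 12689 genes; orange points passed the H3K4me3 test at 1.5-fold or more and purple points passed at less. Lhcgr, Comp, Wnt10b and Sfrp4 are high on both axes, Nrip2 and Atoh8 low on both, and Erdr1 and Fam180a lie in the opposite quadrants.

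Some genes changed in opposite directions. Erdr1, a gene of the region shared by the sex chromosomes, had 113 and 92.7 CPM of the mark at 48 h, against 54.6 and 49.2 CPM at 0 h, while its RNA averaged 30.4 CPM at 48 h and 57.7 CPM at 0 h (log2 -0.92). Copies of Erdr1 on the X and Y chromosomes share sequence, so its counts are uncertain. Emp1, an epithelial membrane protein, had 8.58 and 10.4 CPM at 48 h, against 15.5 and 13.9 CPM at 0 h, while RNA rose (log2 1.19), and without 0 h replicate 1 its window was not called (adjusted p = 0.243). Ebf4, a transcription factor of the early B-cell factor family, had 61.5 and 51.0 CPM at 48 h, against 36.5 and 38.7 CPM at 0 h, while RNA fell (log2 -0.72). Meg3, an imprinted noncoding RNA, had 45.8 and 45.0 CPM at 48 h, against 33.9 and 30.3 CPM at 0 h, while RNA fell (log2 -0.71). Others of the 10 largest such windows were Ano4, Gpr3, Fam180a, Mid1 and Ogn, with log2 folds of the mark between -0.91 and 0.78. Without 0 h replicate 1 the calls of Gpr3 (adjusted p = 0.0911), Mid1 (0.310) and Ogn (0.498) were lost, and that of Ogn was also lost without 0 h replicate 2 (0.114) or 48 h replicate 1 (0.328).

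Other windows changed with no call in RNA. The Rnf220 window had 24.5 and 27.7 CPM at 48 h, against 15.4 and 9.64 CPM at 0 h (log2 1.03), while RNA averaged 98.5 CPM at 48 h and 92.4 CPM at 0 h (log2 0.09). Ackr3 RNA averaged 22.7 CPM at 48 h and 26.8 CPM at 0 h (log2 -0.25) beside a fall of 0.93 in the log2 level of the mark. Agt RNA averaged 126 CPM at 48 h and 195 CPM at 0 h (log2 -0.63, adjusted p = 0.0675). A p that misses the threshold does not show that RNA was unchanged. Hoxd11, Efcab1, Gm867, Plscr2, Prr5 and Galnt15 were also among the 10 largest such windows, of which Gm867 (adjusted p = 0.224), Plscr2 (0.0590) and Prr5 (0.0857) were not called without 0 h replicate 1.

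The level of a window went with the size of its change. Among 1190 windows of 5 to 10 CPM, 4.2% rose and 3.28% fell, and 2.77% reached 1.5-fold in each direction. Among 5844 windows of 50 to 100 CPM, 11.8% rose and 2.98% fell, and 0.274% and 0.171% reached 1.5-fold. Among 131 windows of 200 CPM or more, 19.1% rose and 6.87% fell, and none reached 1.5-fold. More counts let smaller changes pass, and so the share called is not a measure of effect size across levels. The highest windows included Inha, the inhibin alpha subunit, with 401 and 406 CPM at 48 h, against 335 and 340 CPM at 0 h (log2 0.26, adjusted p = 0.00417). Obsl1 starts close to Inha and has nearly the same counts, and the call of Inha was lost with any 1 library left out (adjusted p of 0.235, 0.0662, 0.0589 and 0.0530 without 0 h replicate 1, 0 h replicate 2, 48 h replicate 1 and 48 h replicate 2). The highest window of all, Mir101c, had 986 and 3794 CPM at 48 h, against 1534 and 1267 CPM at 0 h. A single 48 h library stood far above the rest there, and the log2 fold was 0.77 ± 0.90 (adjusted p = 0.752). The call and its direction depended on which library was left out: the window passed as higher without 48 h replicate 1 (log2 1.43, adjusted p = 1.72e-40) or 0 h replicate 2 (0.64, adjusted p = 8.78e-06), and as lower without 48 h replicate 2 (-0.51, adjusted p = 7.87e-05).

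CpG content of the promoter differed between windows that rose and windows that fell. Exactly 1 start was listed for 9265 of the windows, and 300 bases around it (250 before, 50 after) were read for each. CpG-poor promoters, with an observed over expected CpG ratio under 0.4, made up 11.1% of all these windows, 27.1% of 70 windows up by 1.5-fold and 69.6% of 46 down by 1.5-fold. The median ratio was 0.678 for the windows up by 1.5-fold, 0.329 for those down by 1.5-fold and 0.775 over all. Among all windows called, 8.44% of 1019 that rose were CpG-poor (median ratio 0.813), as were 29.6% of 311 that fell (0.588). Rises as a whole were thus CpG-poor less often than all windows, unlike the rises past 1.5-fold. Read the other way, 3.10% of 1033 CpG-poor windows fell by 1.5-fold and 1.84% rose by it, against 0.170% and 0.620% of the 8232 other windows. CpG-poor windows were also lower, with a median of 22.2 CPM against 67.7 CPM, and the part of level in this difference was not tested. The printed sequences of Agt, with no CpG, and Jakmip3, with 22, differ most among the 6, and Slfn14, with 1, is a rise among the CpG-poor.

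Short motifs were searched on both strands of the same 300 bases. The GC box GGGCGG stood in 70.0% of promoters up by 1.5-fold, 37.0% of those down by 1.5-fold, 67.3% of all kept windows and 35.2% of all 22862 promoters with 1 start. The cAMP response element TGACGTCA stood in none of 70 promoters up by 1.5-fold, too few promoters to bound a small share closely. It stood in 4.35% of those down, 3.36% of all kept windows and 1.85% of all promoters. Its core TGACG, which every full element holds, stood in 15.7%, 21.7%, 32.3% and 20.6% of these sets. The AP1 letters TGANTCA stood in 7 of the 70 promoters up by 1.5-fold, 10.9% of those down by it, 4.13% of kept windows and 7.98% of all promoters. The GATA letters AGATAA stood in 4.29% of promoters up and 17.4% of those down by 1.5-fold, 5.60% of kept windows and 11.5% of all promoters, and the steroidogenic factor letters AAGGTCA in 2.86%, 4.35%, 2.73% and 4.65% of these sets. The GATA shares up and down are 3 of 70 and 8 of 46 promoters. Median GC content was 64.3% in the promoters up and 54.7% in those down by 1.5-fold, and the part of base composition in these shares was not tested. A match here is a description of letters, and an absent match says only that the letters are not in these 300 bases.

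Neighbouring windows were compared next. Windows of genes whose starts lay within 250 bp had levels within 20% of each other in 446 of 455 pairs, and those 3 to 5 kb apart in 20 of 184 pairs, so that close starts are largely counted by the same reads. Of the windows named above, Npc2 (with Isca2), Notch1 (Gm35978) and Gsk3b (BC031361) also had a start within 3000 bp at a level within 20%. Gata6 and Ccnd2 are overlapped by Gata6os and 9330179D12Rik, at levels within 20%. For windows with a single listed start, the closest neighbour at a distance of 10 to 100 kb was then compared. Nearer neighbours were passed over. Of 703 windows that rose and had a neighbour at that distance, it rose for 14.4%, against 10.4% over all 6536 such windows. Of 201 that fell and had a neighbour at that distance, it fell for 4.48%, against 3.08% over all. By chromosome, the share that rose ran from 6.81% on X to 14.6% on chromosome 4, and the share that fell from 1.78% on chromosome 17 to 5.5% on chromosome 13.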

How the data were processed

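The authors deposited raw counts per Entrez gene ID for H3K4me3 ChIP-seq and for RNA sequencing, all of them integers. The submitters' processing notes name, among tools for the mark, ChIPseeker 1.18.0, MACS2 2.2, Bowtie2 2.2.9 and Trimmomatic, and for RNA STAR, kallisto, sleuth, Picard and FastQC 0.11.5, with build mm10. Neither the counting program, its use of strand nor the window of each gene is stated in the sources used here. The labels give 2 catalogue numbers for the antibody, from the same supplier. Columns were tied to groups by their names, H3K4me3 replicates carry the number in the column name, and libraries of a group were counted as separate samples.

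Counts were fitted with edgeR 4.0.16 in R 4.3.3 (TMM, filterByExpr, robust quasi-likelihood, Benjamini-Hochberg over all 24476 H3K4me3 windows tested, of which 7 higher and 80 lower calls lay under 5 CPM and were not kept). CPM values are computed here with TMM scaling. Standard errors come from the test statistic. With 2 libraries a group, the SE and p-values rest on variation shared across windows, with a biological coefficient of variation of 0.0465 for H3K4me3 and 0.141 for RNA, and measure the spread between these libraries. The RNA table was fitted alone in the same way; RNA totals were 12013849 to 26343971 counts at 48 h and 15050013 to 18511429 at 0 h. Identical H3K4me3 counts were shared by 986 IDs, 294 of them kept and 20 called.

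Named windows were the 20 largest rises and falls with groups that do not overlap, leaving out predicted genes and IDs of identical counts, the 10 highest levels, up to 4 called and 2 not called per list, 10 genes of the FSH response, and the 10 largest changes with RNA called the other way or not called; a few of these are not reported here. The members and the gene lists were chosen with earlier results of these data known, so no list is independent evidence. Alternatives covered scaling, filters, DESeq2 1.42.0, left-out libraries and replicate blocks. Symbols, coordinates and promoter sequences came from RefSeq, GRCm38.p6. The fit was tested on simulated data.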

Additional observations from a re-analysis of the deposited data

How the results depend on the processing

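The results were computed again under 17 H3K4me3 settings, the reported one included, and none of the 2263 windows called as reported was called the other way. Counts of windows higher and lower at 48 h, 1748 and 515 as reported, were 978 and 843 with library size alone, 1016 and 820 with TMM from windows of 50 CPM or more, 1205 and 1031 with a loess offset, 1073 and 885 with kept windows alone tested, and 610 and 248 with DESeq2. The 1.5-fold windows numbered 81 and 80 higher with library size alone and with TMM from windows of 50 CPM or more, and 63 lower at a minimum of 10 CPM. Genes lower in RNA and mark numbered 370 with the loess offset and 147 with DESeq2, and those higher in both 288 with DESeq2. The replicate number as a replicate block gave 895 and 299 windows, and 362 genes higher in both. Deviations of same-numbered libraries correlated at -0.376 in H3K4me3 and from -0.241 to -0.127 in RNA. With 2 libraries a group the H3K4me3 value is a single number, 0.376 for the crossed pairs, so it cannot settle how libraries were paired. The crossed replicate block, chosen after seeing the data, gave 3023 and 923. TMM from background windows, also chosen after seeing the data, moved the median log2 fold to 0.26 and gave 331 higher and 16 lower windows, with the same 331 and 16 past 1.5-fold and 142 and 10 genes changed alike in RNA. Leaving out 1 library at a time gave 296 to 2069 windows higher and 216 to 640 lower, 109 to 156 and 64 to 127 of them past 1.5-fold, with 177 to 605 genes higher and 127 to 266 lower in both, RNA libraries included. Mir101c, not called as reported, passed as lower without 48 h replicate 2 (log2 -0.51) and as higher without 48 h replicate 1 (1.43), without 0 h replicate 2 (0.64) and with the robust option off (0.77). Counts were also simulated with the same dispersion for every window and 50 windows changed at each fold. There 94% of windows changed by 1.5-fold were called, against 48% at the smallest fold simulated. The data hold windows of far larger spread, such as Mir101c, and many more calls, so these shares may not carry over to them. Many smaller changes may have been missed with 2 libraries a group. The causes of these shifts were not tested.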
